A study of Homo sapiens with 14 samples.

Results

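The telomerase and shelterin genes were measured in WI-38, fibroblasts of human lung whose growth stops unless their telomeres are maintained. The group consisted of 10 genes taken by name. The naming rule used no measured value, though it was set with earlier results of these data known. They were TERT, DKC1, NOP10, NHP2 and GAR1 of telomerase, and TERF1, TERF2, TERF2IP, POT1 and TINF2 of shelterin. On the array, 12 of the 28869 rows carried exactly 1 of these symbols, with 2 rows each for NHP2 and TERF1. Another 2 rows list DKC1 together with small RNA genes and were not used to name a gene. The brighter row of NHP2 and of TERF1 is called row 1 and the dimmer one row 2.

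Telomerase adds repeats to chromosome ends. TERT is its reverse transcriptase, TERC its template RNA, and dyskerin (DKC1), NOP10, NHP2 and GAR1 form the H/ACA protein core that binds the RNA and holds it stable. The same 4 proteins also bind the H/ACA small nucleolar RNAs that guide pseudouridylation of ribosomal RNA. Shelterin is the protein complex that covers telomeric repeats and keeps them from being treated as broken DNA. Normal human fibroblasts keep TERT nearly silent, and TERT supplied from outside (hTERT) is the usual way to make them divide without limit.

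Each of 14 RNA samples was hybridised to 1 Affymetrix Gene 1.0 ST array. All cells were WI-38, fed on the same serum-containing medium and passaged weekly. There were 12 arrays of hTERT-immortalized cells, with 2 at each of passages 39, 50, 58, 67 and 95 under the letter A (A39, A50, A58, A67 and A95) and 2 at passage 96 under the letter B (B96). The other 2 arrays were of primary cells at passage 19 without hTERT. Labels call the RNA preparations biological duplicates, while the hTERT vector, its promoter, the meaning of the letters and whether a culture was a clone were not stated in any source used.

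For 0 of 14 arrays was the most correlated other array, over all rows, the one with the same label. The labels were used as given in every comparison, and whether any label is displaced was not tested. Arrays of a shared label had r of 0.945 to 0.983 with each other. There were 5 pairs that were closest to each other, with r of 0.986 to 0.993. They joined primary replicate 2 to A39 replicate 1, A39 replicate 2 to A50 replicate 1, A50 replicate 2 to A58 replicate 1, A58 replicate 2 to A67 replicate 1, and A95 replicate 2 to B96 replicate 1. Over the 12 rows of the telomerase and shelterin genes, the mean absolute difference within these pairs was 0.09 to 0.14 log2. Within the 7 pairs of a shared label it was 0.19 to 0.66 log2. The 5 pairs were picked by likeness on these same arrays, so the smaller difference is a description and not a test. The 0.66 belonged to the primary pair, where TERT alone differed by 4.63. The row means of the 11 fibroblast markers lay between 10.47 (PDGFRB) and 13.11 (COL1A1), and their lowest single value was 9.15 (LUM on A95 replicate 2), above 76.9% of the rows on its array. The mean deviation of the 11 was -0.27 to -0.39 log2 on the 6 arrays from A58 replicate 2 to B96 replicate 1, and its part in later results was not tested. EPCAM, PECAM1 and PTPRC, markers of epithelium, endothelium and blood, averaged 5.69, 6.79 and 5.55. KRT18, KRT8, CD68 and TEK from the same lists averaged 10.69, 9.93, 10.24 and 9.55. PECAM1 read 8.44 and 7.83 in A95 replicate 2 and B96 replicate 1, and at most 7.04 (A39 replicate 1) on the others, while TEK was lowest on that pair, at 6.77 and 6.79.

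TERT is described first. The row cannot separate the supplied gene from the cell's own copy on chromosome 5, and both messages would be read as 1 level. TERT lay between 10.67 and 12.18 on the 12 hTERT arrays, against 7.07 and 11.70 on primary replicates 1 and 2. One primary array was thus far below every other array, and the second lay inside the hTERT range. The drop of primary replicate 1 below the next lowest array was 3.60 log2, a 12.1-fold gap. Ranked by that gap over all 28869 rows, TERT came first, ahead of an unnamed row at 2.39 and MASP1 at 2.19. Primary replicate 2 goes against its label on the gene that checks it, so values without the library of that label stand beside the comparisons with primary cells.

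**Figure D1:**
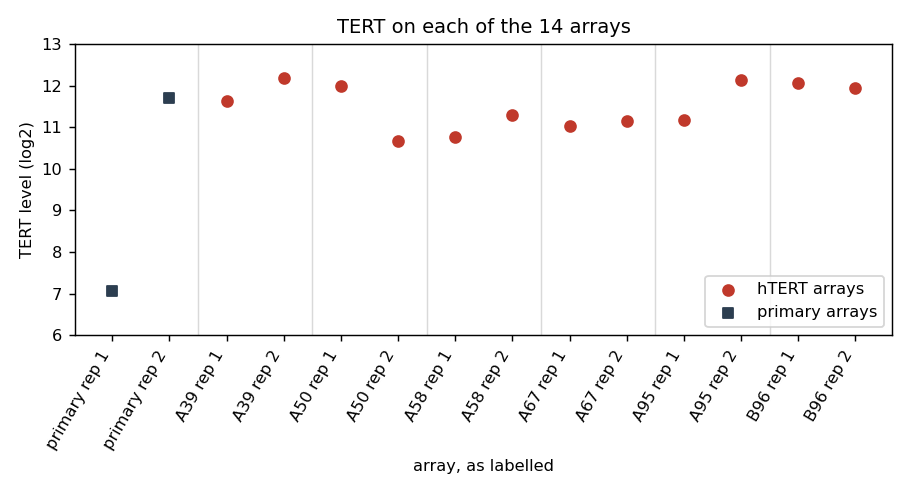
TERT level (log2, vertical axis) on each array, in the order of the labels. Circles are the 12 hTERT arrays, which lie between 10.67 and 12.18, and squares are the 2 arrays labelled primary, at 7.07 and 11.70.

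Across hTERT cells TERT was not level. It read 11.62 and 12.18 in A39 replicates 1 and 2, 11.98 and 10.67 in A50, 10.77 and 11.29 in A58, 11.04 and 11.16 in A67, 11.18 and 12.13 in A95, then 12.05 and 11.93 in B96. The 6 arrays from A50 replicate 2 to A95 replicate 1 all lay at or below 11.29, and the other 6 hTERT arrays at or above 11.62. The breaks lay inside the labels A50 and A95. Group means ran from 11.03 ± 0.37 (SD, n = 2) in A58 over 11.10 ± 0.08 in A67, 11.32 ± 0.93 in A50, 11.66 ± 0.67 in A95 and 11.90 ± 0.40 in A39 to 11.99 ± 0.08 in B96. Each group differed from its neighbour in this order by less than the larger SD of the pair. The range over the 12 hTERT arrays was 1.51 log2.

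Genes whose levels followed TERT most closely over the 12 hTERT arrays were TFAP2A (Pearson r = 0.98), PRDM1 (0.97) and PTGER4 (0.96), out of 19309 named rows. TFAP2A and PRDM1 encode transcription factors and PTGER4 a prostaglandin receptor. These correlations describe 12 arrays that include mutually closest pairs, and no p is attached. PRDM1 read 6.02 in A50 replicate 2 and 5.71 in A58 replicate 1, against 8.16 in A50 replicate 1, where TERT stood at 11.98. On primary replicate 1, where TERT had its lowest level, TFAP2A, PRDM1 and PTGER4 stood at 7.37, 8.39 and 8.44. Their lowest levels, 6.58, 5.71 and 7.33, were on A50 replicate 2 for TFAP2A and PTGER4 and on A58 replicate 1 for PRDM1.

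The comparison of hTERT with primary cells sets the 12 arrays labelled hTERT against the 2 labelled primary, 1 of which had TERT at the hTERT level. Every hTERT array was also of a later passage than the primary arrays, so hTERT and passage cannot be told apart in it. TERT averaged 11.50 on the 12 hTERT arrays and 9.38 on the 2 primary arrays, a difference of 2.11 ± 0.84 log2 (SE) or 4.33-fold. In limma's test with Benjamini-Hochberg adjustment over 28869 rows, the adjusted p was 0.943. Limma called 0 of 12 rows of these genes, with 0% of all rows called. At an unadjusted p under 0.05, limma found 1 of the 12, TERT, against 3.99% of all rows. The groups did not overlap in 0 of the 12 rows, against 1.67% of all rows. The TERT difference was 4.43 log2 without primary replicate 2 and -0.20 without primary replicate 1, and each setting leaves 1 primary array. Primary replicate 2 was singled out by its own TERT level, so the difference without it is a description and not a test. The other 11 rows differed by -0.33 (NOP10) to 0.07 (TINF2), with unadjusted p-values of 0.293 or more. Several depended on which primary array was kept. Without primary replicate 2, NOP10 was at -0.02, TINF2 at 0.24, DKC1 at -0.36 and GAR1 at -0.24. Without primary replicate 1 they were at -0.64, -0.11, 0.08 and 0.21.

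A39 is the earliest hTERT group. TERT averaged 11.90 ± 0.40 in A39 and 9.38 ± 3.27 in primary cells (SD, n = 2 each), a difference of 2.51 ± 1.10 log2 (SE, adjusted p = 1 in limma). The difference was 4.83 without primary replicate 2 and 0.20 without primary replicate 1, each with 1 primary array left. Limma called 0 of the 12 rows and 0% of all rows, and 1 of 12, TERT, had an unadjusted p under 0.05, against 1.20% of all rows. For 3 rows the 2 groups did not overlap, all lower in A39, where 12.8% of all rows did so. They were DKC1 with 10.05 and 9.95 in A39 against 10.64 and 10.20 in primary cells, NHP2 row 1 with 10.42 and 10.19 against 10.75 and 10.51, and TERF2 with 9.69 and 9.70 against 9.77 and 9.90. The differences were -0.42 ± 0.29, -0.33 ± 0.21 and -0.14 ± 0.24 log2 (SE). Without primary replicate 2 they were -0.64, -0.45 and -0.08. Without primary replicate 1, DKC1 was at -0.20 and both NHP2 row 1 and TERF2 at -0.21. The other 8 rows differed by -0.44 ± 0.40 (POT1) to 0.10 ± 0.19 (TERF2IP). Signs among them turned with 1 array. NOP10, at 0.02, was 0.33 without primary replicate 2 and -0.29 without primary replicate 1. Leaving out A39 replicate 1 put POT1 at -0.93 and leaving out A39 replicate 2 put it at 0.05, while TERF2IP ran from -0.03 to 0.24.

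Genes near TERT on chromosome 5p were read beside it. None of the 7 (SLC6A19, SLC6A18, CLPTM1L, SLC6A3, LPCAT1, NKD2 and SLC12A7) passed limma's test, and 0 of 7 had an unadjusted p under 0.05 between hTERT and primary cells, where 3.98% of all genes had one. Their differences ran from -0.35 ± 0.16 (SLC12A7) to 0.30 ± 0.15 log2 (SLC6A18), with a median of 0.14, where the median of all 18377 genes was 0.04. Without primary replicate 2 the median of the 7 was 0.15. CLPTM1L read 10.55 on primary replicate 1 and 10.89 on primary replicate 2, and between 10.64 and 10.93 on hTERT arrays. The 7 neighbours averaged the same deviation, -0.09 log2, on both primary arrays, where TERT differed by 4.63.

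The H/ACA core was examined next. DKC1, the pseudouridine synthase of the complex, is on chromosome X. It read 10.64 and 10.20 in primary replicates 1 and 2, 10.05 and 9.95 in A39, 9.96 and 9.92 in A50, 9.74 and 10.67 in A58, 10.75 and 10.85 in A67, 10.80 and 10.22 in A95, then 10.27 and 10.13 in B96. The 5 arrays from A39 replicate 1 to A58 replicate 1 were the lowest of the 14, and the 4 from A58 replicate 2 to A95 replicate 1 the highest. Between the 2 arrays labelled A58 lay 0.93 log2, so the step lay within a label.

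NHP2, another protein of the core, shared the low arrays of DKC1. NHP2 row 1 read 10.75 and 10.51 in primary cells, 10.42 and 10.19 in A39, 10.18 and 10.29 in A50, 10.22 and 10.83 in A58, 10.82 and 10.69 in A67, 10.66 and 10.63 in A95, then 10.60 and 10.57 in B96. Row 2 read 9.71 and 9.34, 9.47 and 9.06, 9.14 and 9.04, 8.98 and 9.55, 9.66 and 9.40, 9.61 and 9.31, and 9.24 and 9.41 in the same order. On both rows the 4 arrays from A39 replicate 2 to A58 replicate 1 were the lowest of the 14. At the upper end they parted from DKC1, since A67 replicate 2, the highest for DKC1, stood at 9.40 on row 2, below A39 replicate 1 at 9.47. Over the 12 hTERT arrays DKC1 had r = 0.88 with NHP2 row 1 and 0.83 with row 2, and the 2 rows of NHP2 had 0.86 with each other. These are descriptions of arrays that include mutually closest pairs, without a p.

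The levels of cycling-cell genes moved on the same arrays. The mean deviation of 10 such genes (MKI67, TOP2A, CCNB1, CDK1, BUB1B, CCNA2, PCNA, MCM2, MCM6 and TYMS) was -0.93, -0.90, -0.51 and -0.63 log2 on the 4 arrays from A39 replicate 2 to A58 replicate 1. On the next 4, from A58 replicate 2 to A95 replicate 1, it was 0.44, 0.39, 0.83 and 0.80. It was 0.45 and 0.11 on the primary arrays, and between -0.07 and 0.03 on A39 replicate 1, A95 replicate 2 and both B96 arrays. Ribosome assembly genes deviated in parallel, by -0.18 to -0.34 on the first 4 arrays and 0.23 to 0.31 on the next 4. The part of cycling in the levels of DKC1 and NHP2 was not tested. In RNA of whole cultures, fewer expressing cells and less RNA per cell cannot be told apart.

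**Figure D2:**
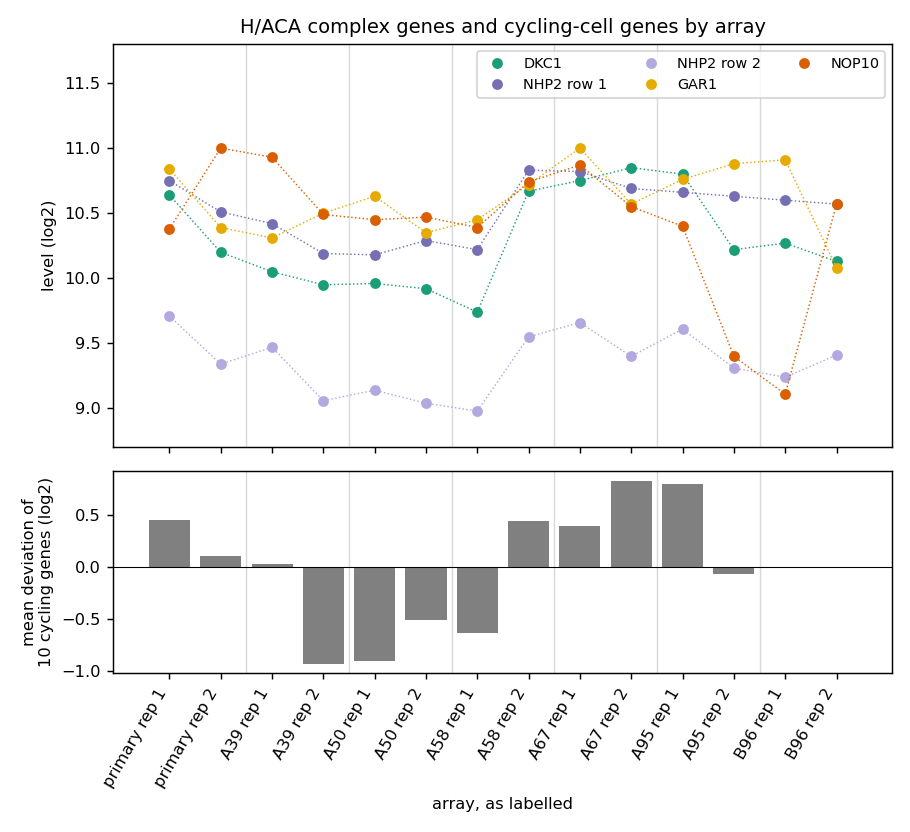
Upper panel: log2 levels of the H/ACA core genes on each array, 1 point per array, with dotted lines to guide the eye. Lower panel: mean deviation (log2) of 10 cycling-cell genes from their means over 14 arrays. DKC1 and both NHP2 rows are low from A39 replicate 2 to A58 replicate 1, DKC1 is highest from A58 replicate 2 to A95 replicate 1, and NOP10 drops to 9.40 and 9.11 on A95 replicate 2 and B96 replicate 1.

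GAR1, which binds DKC1 in the mature complex, had another order of arrays. It read 10.84 and 10.39 in primary cells, 10.31 and 10.50 in A39, 10.63 and 10.35 in A50, 10.45 and 10.72 in A58, 11.00 and 10.57 in A67, 10.76 and 10.88 in A95, then 10.91 and 10.08 in B96. Its largest gap between arrays of a label, 0.83 log2, was in B96. Over the hTERT arrays it had r = 0.53 with DKC1 and -0.44 with NOP10.

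NOP10, the smallest protein of the core, departed from the others. It read 10.38 and 11.00 in primary cells, 10.93 and 10.49 in A39, 10.45 and 10.47 in A50, 10.39 and 10.74 in A58, 10.87 and 10.55 in A67, 10.40 and 9.40 in A95, then 9.11 and 10.57 in B96. A95 replicate 2 and B96 replicate 1 stood at 9.40 and 9.11, while the other 12 arrays lay between 10.38 and 11.00. The same 2 arrays were the lowest of the 14 in 11.5% of all rows and in 2 of the 12 rows here, NOP10 and TERF1 row 2. They were the highest in 16.1% of all rows and in 1 of the 12, TERF2. NOP10 differed between the 2 arrays labelled A95 by 1.00 log2 and between those labelled B96 by 1.46 log2.

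The proximal promoters of DKC1, NHP2 and NOP10 are shown because the first pair moved together over the arrays and the third did not. They come from RefSeq's table on GRCh38.p14, each a window of 300 bases around the gene's start, on the gene's strand from 5′ to 3′. Capitals mark GGGCGG (the GC box), CACGTG (the E-box), CCGGAAG (an ETS-type site) and TTAGGG (the telomeric repeat), each searched on both strands, and runs that overlap are joined.
DKC1, chrX:154762614-154762913, plus strand: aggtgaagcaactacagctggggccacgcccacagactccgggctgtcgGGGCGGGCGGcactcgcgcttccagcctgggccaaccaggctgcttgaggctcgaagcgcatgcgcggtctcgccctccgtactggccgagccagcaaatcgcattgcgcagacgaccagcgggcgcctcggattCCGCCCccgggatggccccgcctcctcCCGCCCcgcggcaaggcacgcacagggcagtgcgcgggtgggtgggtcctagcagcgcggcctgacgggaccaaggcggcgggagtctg
NHP2, chr5:178153836-178154135, minus strand: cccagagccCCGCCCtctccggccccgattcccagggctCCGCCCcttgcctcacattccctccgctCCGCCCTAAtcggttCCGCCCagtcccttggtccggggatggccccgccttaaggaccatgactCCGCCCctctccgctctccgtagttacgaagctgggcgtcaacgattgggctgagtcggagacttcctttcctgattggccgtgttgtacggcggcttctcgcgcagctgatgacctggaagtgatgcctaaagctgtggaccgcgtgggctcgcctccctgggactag
NOP10, chr15:34343087-34343386, minus strand: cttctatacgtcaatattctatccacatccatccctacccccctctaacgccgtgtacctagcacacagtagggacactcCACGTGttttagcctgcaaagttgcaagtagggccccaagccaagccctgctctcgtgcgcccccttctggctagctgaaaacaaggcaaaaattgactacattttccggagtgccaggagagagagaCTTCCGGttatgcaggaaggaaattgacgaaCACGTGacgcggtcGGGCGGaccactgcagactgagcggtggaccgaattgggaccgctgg
The DKC1 window holds 4 GC boxes and no other of the 4 motifs, and the NHP2 window 5 GC boxes and 1 TTAGGG, which overlaps a GC box. In NOP10 there are 2 E-boxes, 1 GC box and 1 ETS-type site. Of all 35116 promoter windows in the table, 45% hold a GC box, 7.26% an E-box, 10.3% an ETS-type site and 9.05% a TTAGGG. A match describes letters in the window and not a bound site, and the part of these motifs in the levels was not tested. The TERT window and a GAR1 window also hold 1 E-box each. The other GAR1 window and those of TERF2IP, POT1 and TINF2 hold none. A promoter window was matched for 8 of the 10 genes, with TERF1 and TERF2 unmatched.

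TERF1 encodes TRF1, which binds double-stranded telomeric repeats. Its row 1 read between 9.73 (primary replicate 1) and 10.07 (A58 replicate 2), a range of 0.34 log2 that is wider than that of only 1.9% of all rows. Row 2 read 9.31 and 9.29 in primary cells, 9.29 and 9.13 in A39, 9.12 and 9.39 in A50, 9.20 and 9.42 in A58, 9.38 and 9.53 in A67, 9.40 and 8.32 in A95, then 8.54 and 9.28 in B96. The 2 rows disagree on A95 replicate 2 and B96 replicate 1, where row 1 stood at 9.81 and 9.79, inside its range elsewhere. The level of TERF1 on those arrays is uncertain.

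TERF2 encodes TRF2, the shelterin protein that folds and protects the chromosome end. It read 9.77 and 9.90 in primary cells, 9.69 and 9.70 in A39, 9.65 and 9.70 in A50, 9.67 and 9.87 in A58, 9.98 and 9.92 in A67, 9.95 and 10.45 in A95, then 10.37 and 9.68 in B96. A95 replicate 2 and B96 replicate 1 were the highest, with the other 12 arrays between 9.65 and 9.98. TERF2IP encodes RAP1, the partner of TRF2, and its order was another. It was highest on the 4 arrays from A39 replicate 2 to A58 replicate 1, at 10.00, 10.02, 9.97 and 9.99, and between 9.50 and 9.88 on the other 10. Over the 12 hTERT arrays TERF2IP had r = -0.67 with DKC1 and -0.81 with each row of NHP2.

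POT1 binds the single-stranded overhang of the telomere, and its range of 1.45 log2 was the widest in shelterin. It read 8.53 and 8.36 in primary cells, 8.49 and 7.51 in A39, 8.06 and 8.30 in A50, 8.10 and 8.73 in A58, 8.55 and 8.96 in A67, 8.93 and 7.76 in A95, then 7.93 and 8.08 in B96. Its lowest array was A39 replicate 2 and its highest A67 replicate 2, and arrays of the same label were 0.98 log2 apart in A39 and 1.17 in A95. TINF2 encodes TIN2, which bridges TRF1, TRF2 and the POT1 branch. It stayed between 9.24 (A50 replicate 1) and 9.78 (A58 replicate 2). On the 12 hTERT arrays TINF2 had r = -0.74 with TERT, and POT1 and TERF1 row 2 each r = -0.64. The other shelterin rows had -0.31 (TERF1 row 1), -0.07 (TERF2IP) and 0.31 (TERF2). These arrays include mutually closest pairs, and no p is attached.

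**Figure D3:**
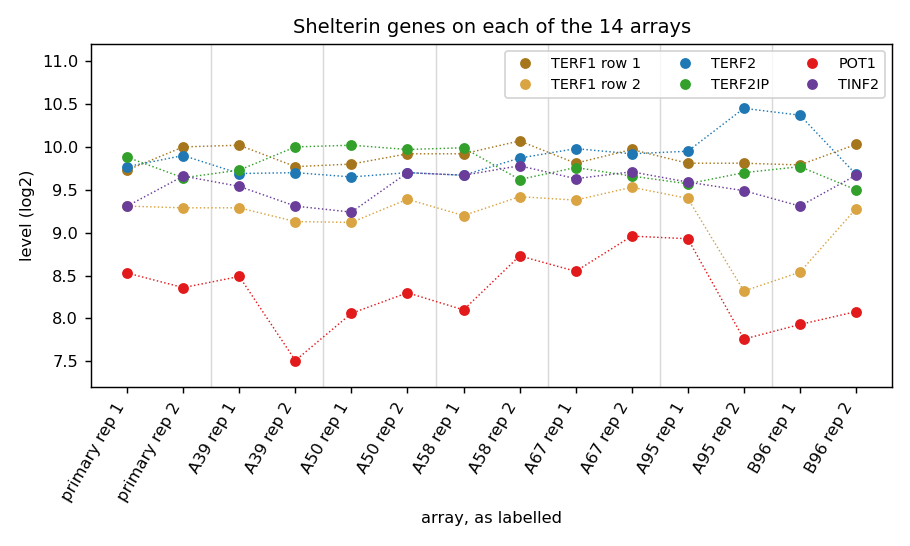
Log2 levels of the shelterin genes on each array, 1 point per array, with dotted lines to guide the eye. POT1 is the most variable, at 7.51 to 8.96. On A95 replicate 2 and B96 replicate 1, TERF2 is high at 10.45 and 10.37 and TERF1 row 2 low at 8.32 and 8.54, while TERF1 row 1 is not.

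The rows of these genes varied over the 14 arrays about as much as other rows, with a median range of 0.86 log2 against 0.85 for all 28869. TERT, at 5.11, had a wider range than 99.9% of rows and NOP10, at 1.89, than 92.3%. TERF1 row 1, TERF2IP (0.52) and TINF2 (0.54) were among the steadier rows, at or below the 14th percentile.

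**Figure D4:**
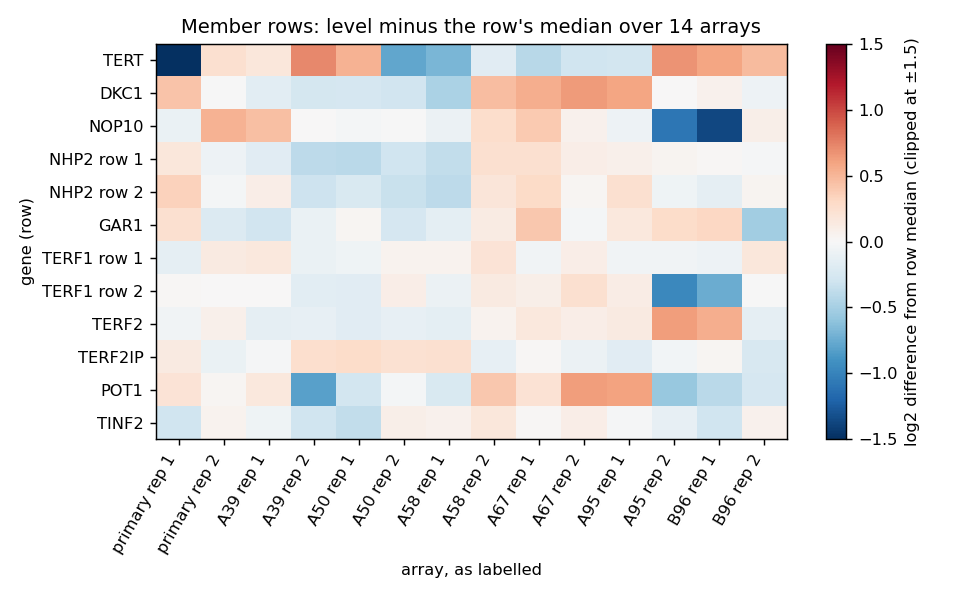
Each cell gives a row's log2 level on an array minus that row's median over the 14 arrays, clipped at 1.5 in either direction. Red is above and blue below the median. Primary replicate 1 stands out in TERT, and A95 replicate 2 with B96 replicate 1 in NOP10, TERF1 row 2 and TERF2.

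A95 and A39 are the ends of the labelled A course. Limma called 0 of 12 rows (0% of all rows), and 0 of 12 had an unadjusted p under 0.05, against 9.21% of all rows. For 4 rows A95 lay wholly above A39, where 22.7% of all rows did so, and for 2 wholly below, where 15.4% did. DKC1 averaged 10.51 in A95 and 10.00 in A39, a difference of 0.51 ± 0.29 log2 (SE). The differences were 0.51 ± 0.24 for TERF2, 0.41 ± 0.28 for GAR1 and 0.34 ± 0.21 for NHP2 row 1, and the 2 that lay below were NOP10 at -0.81 ± 0.45 and TERF2IP at -0.23 ± 0.19. The adjusted p of these 6 ran from 0.545 to 0.657. NOP10 was -0.31 without A95 replicate 2 and -1.31 without A95 replicate 1, DKC1 0.80 and 0.22, and TERF2 0.26 and 0.76, so the size of each rests on which array of the label is kept. TERT differed by -0.24 ± 1.10 log2, and by 0.23 without A95 replicate 1 and -0.72 without A95 replicate 2. The SE pools the spread between duplicates of all 7 groups. For TERT the SD was 3.27 in the primary pair and 0.08 to 0.93 in the hTERT groups. The other rows lay between -0.35 ± 0.33 (TERF1 row 2) and 0.35 ± 0.40 (POT1), and both of these also crossed 0. TERF1 row 2 was 0.19 without A95 replicate 2 and POT1 -0.24 without A95 replicate 1.

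B96 was set against A95, its neighbour in passage under the other letter. TERT averaged 11.99 ± 0.08 in B96 and 11.66 ± 0.67 in A95 (SD, n = 2 each), a difference of 0.33 ± 1.10 log2 (SE, adjusted p = 1 in limma). The difference was -0.14 without A95 replicate 1 and 0.81 without A95 replicate 2. Its SE again takes in the spread of the primary pair. NOP10 averaged 9.84 ± 1.03 in B96 and 9.90 ± 0.71 in A95, a difference of -0.06 ± 0.45. NOP10 was at -0.79 without B96 replicate 2 and 0.67 without B96 replicate 1. The remaining rows differed by -0.34 ± 0.40 (POT1) to 0.10 ± 0.17 (TERF1 row 1), and POT1 ran from -0.93 to 0.24 when 1 array was left out. Limma called 0 of 12 rows (0% of all rows), and 0 of 12 had an unadjusted p under 0.05, against 2.28% of all rows. Only NHP2 row 1 did not overlap, with 10.60 and 10.57 in B96 and 10.66 and 10.63 in A95, where 9.84% of all rows were lower without overlap. Each label here holds 1 array of the mutually closest pair, A95 replicate 2 and B96 replicate 1, and another array. Over all rows, the array most correlated with B96 replicate 2 was A39 replicate 1, and with A95 replicate 1 it was A67 replicate 1.

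Steps between neighbouring passages gave 0 called rows of 12 in each of the 4 limma contrasts, with 0% of all rows called, and 0 of 12 at an unadjusted p under 0.05. The shares of all rows at that p were 0.797% for A50 against A39, 0.984% for A58 against A50, 1.34% for A67 against A58 and 3.13% for A95 against A67. DKC1 in A67 against A58 came nearest, with a difference of 0.60 ± 0.29 log2 (SE, unadjusted p = 0.0694, adjusted p = 1). It was 0.13 without A58 replicate 1 and 1.06 without A58 replicate 2. DKC1 was one of 2 rows, with TERF2 at 0.18 ± 0.24, that lay wholly higher in A67, as did 11.7% of all rows. NOP10 had the largest negative difference of these rows and steps, -0.81 ± 0.45 in A95 against A67, and TERF1 row 2 the next with -0.59 ± 0.33. Without A95 replicate 1 these were -1.31 and -1.13, and without A95 replicate 2 -0.31 and -0.05. TERT was wholly higher in A95 than in A67, with 11.18 and 12.13 against 11.04 and 11.16, as were 18.4% of all rows. The difference was 0.56 ± 1.10 log2, and 1.03 without A95 replicate 1 and 0.08 without A95 replicate 2. Here too the SE takes in the spread of the primary pair. NOP10, NHP2 row 1 and TINF2 lay wholly lower in A95 than in A67, as did 10.8% of all rows, and NOP10 wholly lower in A50 than in A39, a pair of groups that did not overlap, in either direction, in 23.6% of all rows. Over the 4 steps GAR1 differed by 0.04 to 0.20, TERF2IP by -0.19 to 0.13, POT1 by -0.41 to 0.34, TINF2 by -0.13 to 0.26, TERF2 by -0.02 to 0.25 and TERF1 row 1 by -0.10 to 0.13. The steps of NHP2 were -0.11 to 0.29 on row 1 and -0.17 to 0.26 on row 2. Those of TERT were -0.58 to 0.56, of DKC1 -0.29 to 0.60, of NOP10 -0.81 to 0.14 and of TERF1 row 2 -0.59 to 0.14.

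A linear slope over passage was fitted to the 10 A arrays. None of the 12 rows passed limma's test of that slope, where 0.281% of all rows did. At an unadjusted p under 0.05 there were 3 of 12, against 18.7% of all rows. TERF2 had a slope of 0.10 ± 0.028 log2 per 10 passages (SE, adjusted p = 0.121), GAR1 of 0.078 ± 0.030 (0.216) and NOP10 of -0.130 ± 0.053 (0.231). Without A95 replicate 1 the TERF2 slope was 0.137 with an adjusted p of 0.0472, where 571 of all rows were called, against 81 with all 10 arrays. Without A95 replicate 2 the TERF2 slope was 0.060. Without A95 replicate 2 that of NOP10 was -0.031. TERT had -0.012 ± 0.084, and DKC1 0.117 ± 0.057 with an adjusted p of 0.29. NHP2 had 0.076 ± 0.037 on row 1 and 0.055 ± 0.039 on row 2. In shelterin, POT1 had 0.065 ± 0.072, TINF2 0.019 ± 0.032, TERF2IP -0.054 ± 0.028 and TERF1 -0.016 ± 0.024 on row 1. TERF1 row 2 had -0.062 ± 0.051, and 0.045 without A95 replicate 2. Mutually closest arrays stood at adjacent passages here, and the fit treats all 10 as independent.

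**Figure D5:**
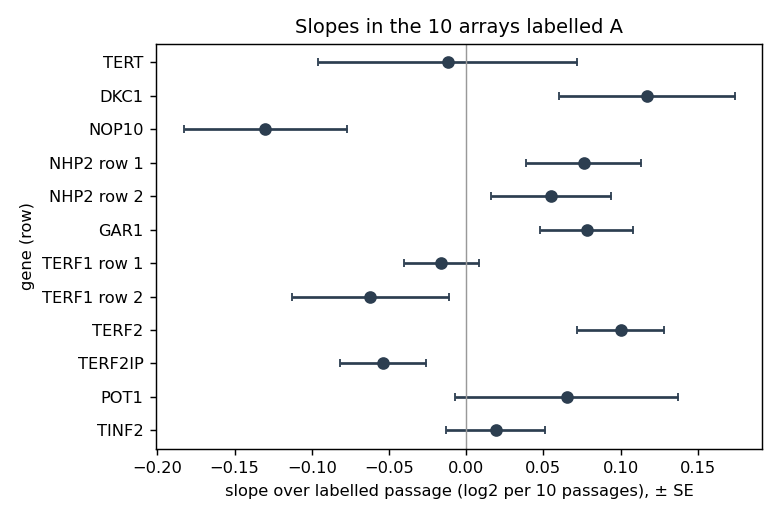
Slope of each row over labelled passage in the 10 A arrays (log2 per 10 passages, horizontal axis), with bars of 1 SE. TERF2 (0.10) and NOP10 (-0.130) lie farthest from 0 for their SE in each direction, and none of the 12 rows passed the adjusted threshold.

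Other genes of telomerase assembly were also measured. TERC, the template RNA on chromosome 3, read 7.57 and 8.05 in primary cells, 8.17 and 8.18 in A39, 7.98 and 8.11 in A50, 7.87 and 7.74 in A58, 7.90 and 7.89 in A67, 8.24 and 8.52 in A95, then 8.31 and 8.41 in B96. Every hTERT array was above primary replicate 1, and 5 of the 12 were below primary replicate 2. The difference of TERC between hTERT and primary cells was 0.30 ± 0.14 log2 (SE, adjusted p = 0.943 in limma). It was 0.54 without primary replicate 2 and 0.06 without primary replicate 1. ACD, which encodes the shelterin subunit TPP1, ran from 7.90 (A50 replicate 1) to 9.25 (A67 replicate 2) on hTERT arrays, against 8.46 and 8.31 on primary arrays.

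The wider list of 14 assembly genes (13 measured) and that of 23 telomere replication, processing and repair genes (21 measured) had 0 genes past limma's test in each of the 8 contrasts and the trend. In A95 against A39, where 56.5% of all genes had positive differences, 12 of 13 assembly genes did. Their median was 0.20 log2 against 0.05 for all genes. They ran from HSP90AA1, a chaperone, at -0.01 ± 0.24 to ACD at 0.70 ± 0.29 (SE). For the replication and repair list the median was also 0.20, with 14 of 21 positive, from HMBOX1 at -0.50 ± 0.22 to EXO1, an exonuclease, at 1.44 ± 0.55. Cycling-cell genes had 10 of 10 positive with a median of 0.75, from PCNA at 0.29 ± 0.45 to BUB1B at 1.45 ± 0.51, and their part in both lists was not tested. Between hTERT and primary cells the medians were -0.05 and -0.06, with NAF1 at -0.34 ± 0.21 the lowest and TERC the highest of the assembly genes. EXO1 at -0.28 ± 0.42 was the lowest and RAD50 at 0.19 ± 0.17 the highest of the repair list there. Without primary replicate 2 both medians were -0.09, and without primary replicate 1 they were 0.06 and -0.02, so the sign of the assembly median turned.

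In A39 against primary cells the assembly list had a median of -0.13, from NAF1 at -0.55 ± 0.27 to TERC at 0.36 ± 0.19, and the repair list of -0.17, from BLM at -0.86 ± 0.49 to ATM at 0.06 ± 0.23. Cycling-cell genes had a median of -0.67 there, with 10 of 10 negative, where 56.2% of all genes were positive. Without primary replicate 2 the 3 medians were -0.21, -0.18 and -0.88, and without primary replicate 1 -0.05, -0.13 and -0.57. In B96 against A95 the assembly median was -0.02, from WRAP53 at -0.45 ± 0.32 to SMG5 at 0.19 ± 0.19, and the repair median -0.06, from EXO1 at -0.67 ± 0.55 to HMBOX1 at 0.55 ± 0.22. In the passage trend the slopes of the assembly genes were positive for 13 of 13, with a median of 0.046 log2 per 10 passages against 0.010 for all genes, of which 56.6% were positive. Cycling-cell genes were positive for 10 of 10 there, with a median of 0.182, and their part was not tested. The assembly slopes ran from HSP90AA1 at 0.001 ± 0.034 to ACD at 0.156 ± 0.055. The highest of the repair list was EXO1 at 0.339 ± 0.112, and the lowest HMBOX1 at -0.092 ± 0.025.

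Genes that act on TERT transcription (9 of 9 measured) had a median of -0.11 between hTERT and primary cells, from GABPB1 at -0.31 ± 0.27 to SP1 at 0.15 ± 0.17. The median was -0.03 without primary replicate 2 and -0.08 without primary replicate 1. In A95 against A39 their median was again -0.11, from ETS2 at -0.75 ± 0.34 to E2F1, a cell cycle factor, at 0.61 ± 0.19. The snoRNP and ribosome assembly genes (14 of 17 measured) had medians of -0.15 and 0.28 in these 2 comparisons, and in A95 against A39 ran from RRS1 at -0.49 ± 0.51 to POLR1B at 0.41 ± 0.24. Leaving out primary replicate 2 put the median between hTERT and primary cells at -0.26, and leaving out primary replicate 1 at -0.05. None of either list passed limma's test in the 8 contrasts or the trend.

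Small RNAs were read on the 77 genes named SNORA or SCARNA. The H/ACA core binds the SNORA class and part of the SCARNA class, and the names also take in Cajal body RNAs of the C/D class such as SCARNA7, SCARNA9 and SCARNA17. None passed limma's test in any of the 8 contrasts or the trend. In A95 against A39 their median difference was 0.17 log2 with 50 of 77 positive, and between hTERT and primary cells -0.03 with 33 positive (0.01 with 42 positive without primary replicate 2). All genes were positive for 56.5% and 57.2% in these comparisons. In A95 against A39, SNORA5A had the largest difference, 2.65 ± 1.22 (SE), and SCARNA1 the lowest, -1.26 ± 0.63. SNORA5A read 10.33 and 10.06 on A95 replicate 2 and B96 replicate 1 and between 5.38 and 6.55 on the other 12 arrays. SCARNA1 read 5.64 and 5.74 on that pair and between 6.75 and 8.27 elsewhere. The pair held the 2 highest arrays for 21 of the 77 genes (27.3%, against 16.1% of all rows) and the 2 lowest for 14 (18.2%, against 11.5%).

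Beyond TERT, the named gene closest to each row over the 12 hTERT arrays was NOP58, a C/D small nucleolar RNP protein, for DKC1 (r = 0.98), and RPLP2, a ribosomal protein, for NOP10 (0.98). It was CNIH3 for NHP2 row 1 (0.98) and RUVBL1, a helicase used in telomerase assembly, for row 2 (0.95). GAR1 was closest to COQ5 (0.93), TERF1 row 1 to ZNF17 (0.91) and row 2 to GULP1 (0.99), and TERF2 to MRPL27 (0.98). TERF2IP was closest to TMEM59 (0.97), POT1 to ORC5, a subunit of the origin recognition complex (0.96), and TINF2 to POLR3A (0.95). Each was picked as the highest r of 19308 or 19309 named rows, over arrays that include mutually closest pairs. No p is attached, and whether function is shared was not tested. On A95 replicate 2 and B96 replicate 1, GULP1 was at most 8.51 and MRPL27 at least 10.78. Elsewhere GULP1 was at least 9.41 and MRPL27 at most 10.14.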

How the data were processed

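The deposited series matrix held 1 value per row and array for 28869 rows on a log2 scale made by the authors, and array medians lay between 7.26 and 7.48. No source used here states the background correction, the summarisation or the normalization, and the values were used as deposited. Gene names came from the platform annotation. Of all rows, 19310 had 1 symbol, 1752 several and 7807 none, and only rows with 1 symbol were named.

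Group means were fitted over all 14 arrays in limma 3.58.1 (R 4.3.3, lmFit and eBayes), with p-values adjusted by Benjamini-Hochberg over all rows and a threshold of 0.05. The passage slope was fitted over the 10 arrays labelled A. The fits were tested on simulated data with independent arrays, so likeness between arrays of different labels was not simulated. With 2 arrays per group, their number limits the precision. In the contrasts, p-values set a difference against the spread between the labelled duplicates, pooled over the 7 groups. In the trend, they set the slope against the scatter of the 10 arrays around the line.

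All 10 genes are given in each comparison, by value or within a range. From each of 7 other lists, genes past the threshold were to be named, or else the lowest and the highest, in all comparisons but the 4 neighbouring steps. The text does so for the assembly and repair lists and in part for the others. The closest genes were ranked by Pearson correlation over the 12 hTERT arrays. PECAM1, TEK, LUM and the likeness values of single arrays were picked after their values were seen. The genes and lists were chosen with earlier results of these data known. Replicate numbers were not used to pair the samples in the main fits. Correlations of the deviations between groups ran from -0.53 to 0.20, with 4 of 21 pairs of groups over 0.1. Alternatives were normalization, row filters, variance settings, blocks and leaving out each array.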

Additional observations from a re-analysis of the deposited data

How the results depend on the processing

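Of 1578 values of the telomerase and shelterin rows under alternatives, 104 had another sign, and 3 passed the threshold that had not. The slope of TERF1 row 2 was -0.123 without A95 replicate 1, and it reversed to 0.045 without A95 replicate 2 and to 0.085 over passages 39 to 67. The cause was not tested. Leaving out 1 array at a time gave 0 to 10 called rows in hTERT against primary cells, 0 to 6 in A39 against primary, 0 to 4 in A95 against A39, 0 to 3 in B96 against A95, 0 to 6 in A95 against A67 and 0 to 571 in the trend. The rows of these genes among them were 0 to 1 in hTERT against primary, in A39 against primary and in the trend. With quantile normalization or array weights, 1 row was called in hTERT against primary. With the compared groups alone, 2 rows were called in A95 against A39 and 1 in A58 against A50. The 81 rows of the trend became 159 with quantile normalization, 429 with centring, 271 with a filter on dim rows, 174 with 1 row per gene, 132 with an intensity trend, 2171 with array weights, 729 with a random block, 489 with ranked passages and 0 over passages 39 to 67. With the replicate number as a block, 0 rows were called in each of the 8 contrasts and 74 in the trend, and no call on these genes changed. Without A95 replicate 2 and B96 replicate 1, an alternative chosen after seeing the data, 0 rows were called in the contrasts. For hTERT against primary, the compared groups are all groups.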
